A study of Mus musculus with 12 samples.

Results

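Ap5s1, Tmem144, Atg16l2, Fam188a, Slbp and St7 are 6 mouse genes with an isoform that the deposited transcript table lists at 0 in all 3 embryos of 1 genotype and well above 0 in all 3 embryos of the other. Every transcript that the table names after one of these genes was taken, which gave 70 of 84548 listed transcripts and 6 of 40690 listed genes. The genes were picked for these very estimates, so the genotype difference of an isoform in the experiment that picked it is described here and not tested. The count of each whole gene comes from the same libraries, so it is not independent of these estimates and is a description too. The other readouts are the estimates of the same isoform in the other experiment, which shares no embryo, and the sequence of the isoforms.

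Polyadenylated RNA came from whole brains of 12 C57BL/6J embryos at embryonic day 14.5, with 1 library per embryo. LC1 knockout embryos (7, 22 and 71) lack a conserved non-coding element, LC1, and were compared with LC1 wild types (6, 26 and 73). These 6 embryos were female. RKI homozygous embryos (A1, A10 and A18) carry a human sequence variant, knocked in on both alleles, and were compared with RKI wild types (A2, A9 and A16). Each RKI group held 1 female (A10, and A9 in the wild types) and 2 males. Mutants and wild types were matched by sex and litter per the labels' protocol, but no label names the litters or the number of founder lines. LC1 is not a transcribed gene of the tables, so the genotypes could not be checked on the counts.

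An isoform is 1 of several transcripts that a gene makes by starting, splicing or ending its RNA differently. A short read that falls on sequence shared by isoforms does not show which of them it came from. Programs that estimate isoforms divide such reads by a model, while a count per gene adds up the reads of the locus without that step.

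The sequences below show stretches where key isoforms differ from another isoform of their gene. They are from GENCODE M21 transcripts on GRCm38, written 5′ to 3′ on the strand of the gene. Ap5s1-001 splices out 89 bases at chr2:131212737-131212825 that Ap5s1-003 keeps. Capitals mark the 2 bases that meet at the junction in Ap5s1-001, and the kept bases in Ap5s1-003.
Ap5s1-001: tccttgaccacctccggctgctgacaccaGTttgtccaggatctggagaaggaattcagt
Ap5s1-003: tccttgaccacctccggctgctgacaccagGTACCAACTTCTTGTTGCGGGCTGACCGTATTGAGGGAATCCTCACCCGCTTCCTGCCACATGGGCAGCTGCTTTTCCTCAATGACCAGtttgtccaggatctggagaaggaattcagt

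Fam188a-002 starts 1 exon 2 bases later than Fam188a-001, at chr2:12404167-12404168 on the minus strand. Capitals mark the bases at the junction in Fam188a-002 and the 2 extra bases in Fam188a-001. Fam188a-001 also starts 26 bases further upstream. A shift of 2 bases changes the reading frame, and the deposited table lists Fam188a-002 as a target of nonsense-mediated decay.
Fam188a-002: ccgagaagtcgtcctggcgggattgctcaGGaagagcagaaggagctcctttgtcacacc
Fam188a-001: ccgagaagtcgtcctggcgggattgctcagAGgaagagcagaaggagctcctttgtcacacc

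St7-025 and St7-003 begin in different first exons and then share the second. Capitals mark the coding bases of the first exon, 13 in St7-025 and 22 in St7-003. St7-025 also holds a 69-base exon, at chr6:17850357-17850425, that St7-003 skips.
St7-025: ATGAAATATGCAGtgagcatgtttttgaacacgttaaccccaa
St7-003: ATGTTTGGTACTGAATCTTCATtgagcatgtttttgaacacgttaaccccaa

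Atg16l2-003 keeps a 174-base intron, at chr7:101292180-101292353 on the minus strand. Capitals mark its first bases, up to the end of the annotated coding sequence, and in Atg16l2-001 the bases that meet where this intron is removed.
Atg16l2-003: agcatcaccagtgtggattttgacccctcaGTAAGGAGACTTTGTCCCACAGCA
Atg16l2-001: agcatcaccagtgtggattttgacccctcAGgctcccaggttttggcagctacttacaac

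Slbp-010 is a retained-intron transcript of 2 exons that begins inside an intron and keeps 180 bases of it, at chr5:33641983-33642162 on the minus strand. Capitals mark the last intron bases in Slbp-010 and the junction in Slbp-002.
Slbp-010: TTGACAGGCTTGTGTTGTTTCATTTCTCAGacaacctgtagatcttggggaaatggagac
Slbp-002: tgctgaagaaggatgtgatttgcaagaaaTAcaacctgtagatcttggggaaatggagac

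The share of each all-or-none isoform found in no other isoform of its gene ran from none to 23.8%. All 70 transcripts were found by identifier in GENCODE M21, and each was cut into every run of 50 bases it contains. Of the 1383 such words of Ap5s1-001, 44 (3.18%) occurred in no other listed Ap5s1 isoform, all of them across the junction printed above. Of the 2267 words of Fam188a-002, 46 (2.03%) were its own. St7-025 and Atg16l2-003 had no word of their own among 1838 and 2452, since each stretch of them recurs in some other isoform of the gene. Tmem144-002 had 182 of 2171 (8.38%), in an untranslated first exon of 183 bases, and Slbp-010 had 180 of 756 (23.8%). Ap5s1-003, St7-003 and Atg16l2-012, whose mean shares were higher in the LC1 knockouts, where Ap5s1-001, St7-025 and Atg16l2-003 were at 0, had no word of their own either.

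**Figure D1:**
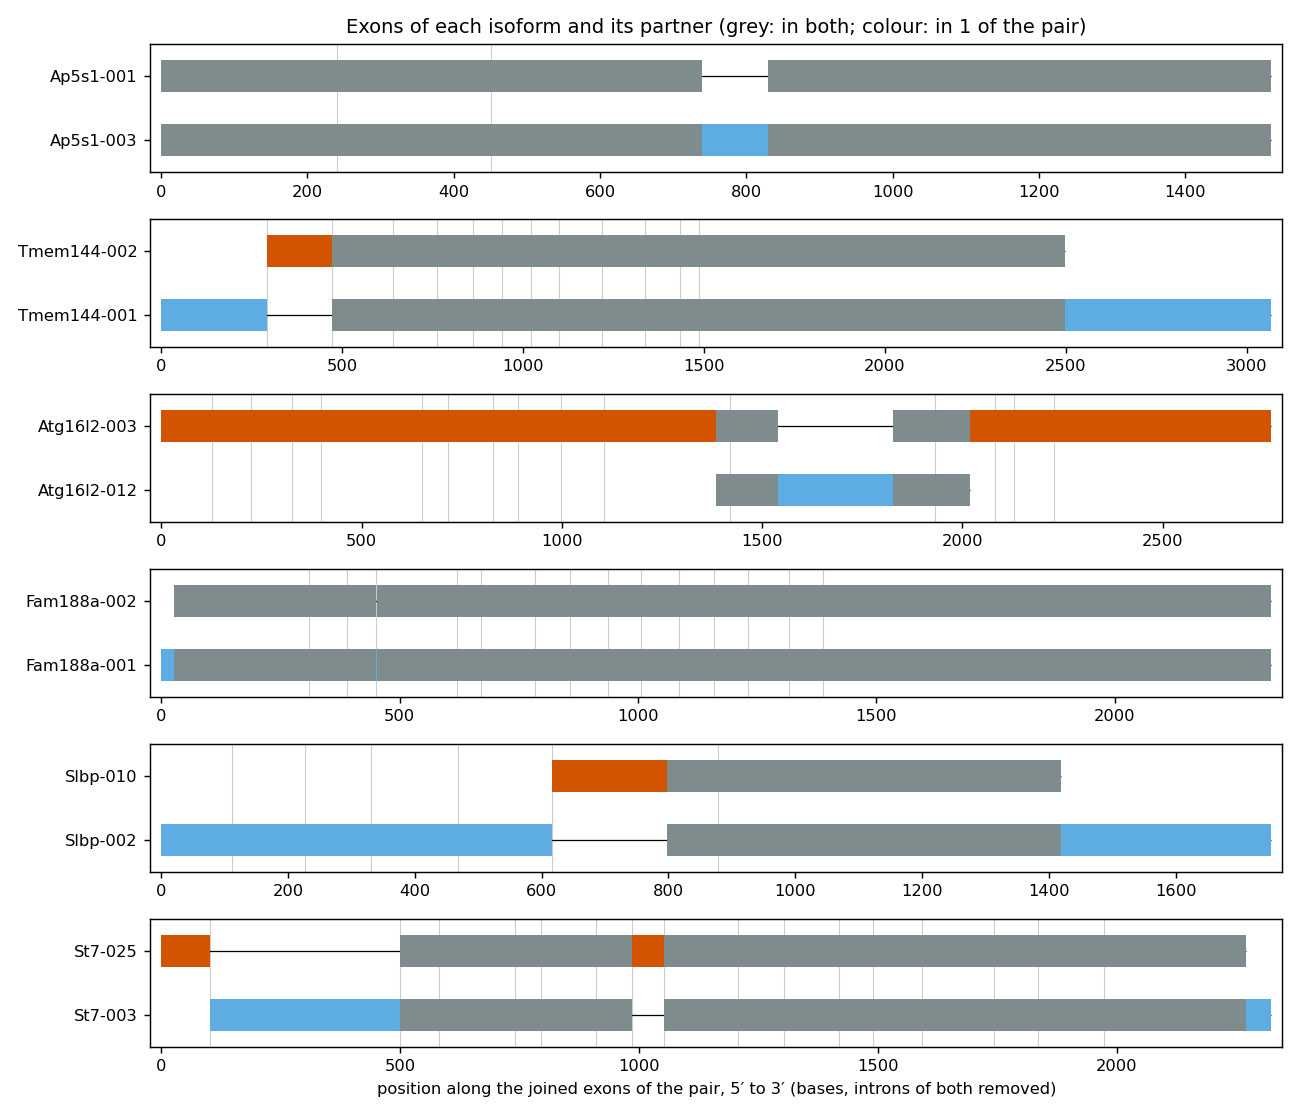
Exons of each all-or-none isoform (upper bar) above its partner (lower bar), the isoform whose mean share differed most in the other direction, plotted 5′ to 3′ in bases along the joined exons with the introns of both removed. Grey marks bases in both, orange bases only in the upper isoform and blue bases only in the lower one, and vertical lines mark removed introns. Ap5s1-001 and Fam188a-002 hold no base that their partner lacks, and Atg16l2-003 shares only 351 of its 2501 bases with the shorter Atg16l2-012.

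The deposited values themselves show 1 feature of how the estimates were made. In each library the ratio of estimated count to RPKM rose in proportion to the transcript length less 19 bases, to within 0.2% for 84.2% to 85.3% of the transcripts used. The length behind the deposited values could so be compared with GENCODE M21. It matched for Ap5s1-001, Ap5s1-003, St7-003, Atg16l2-003, Atg16l2-012, Fam188a-002, Slbp-010 and Slbp-002. It did not for St7-025 (1858 bases behind the values, 1887 in M21), Fam188a-001 (2341 and 2344), Tmem144-001 (2292 and 2898) and Tmem144-002 (2205 and 2220). Nor did it for Atg16l2-001, printed above beside Atg16l2-003 (2165 and 6459). Over the 57 isoforms of the 6 genes with a length behind their values, 42 matched to within 1 base. An isoform's own words depend on all isoforms of its gene, so the counts of own words may differ in the annotation the authors used.

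Gene counts per library summed to 18192984 to 26566769, and transcript estimates to 1.15 to 1.19 times as much. Over all 16002 genes tested, edgeR's quasi-likelihood test with Benjamini-Hochberg adjustment called 0 genes at 0.05 for LC1 (334 at an unadjusted p under 0.05) and 0 for RKI (307). DESeq2's Wald test called 0 in each as well. Among 47772 transcripts edgeR called 0 for LC1 (1418 unadjusted) and 0 for RKI (1172), while DESeq2 called 191 and 132. In the authors' deposited tables the smallest adjusted p over all transcripts was 0.665 for LC1 and 0.751 for RKI. Markers of neural progenitors summed to 1597 to 2147 CPM (counts scaled to a common library size) and of neurons to 6460 to 7183 CPM, and markers of skin stayed at or under 0.456 CPM. Blood markers ranged from 762 to 1622 CPM over the libraries, microglia from 61.2 to 78.3, endothelium from 203 to 242 and meninges from 439 to 620. In LC1 knockouts 5 of 6 neuron, 3 of 5 progenitor and 1 of 4 blood markers were higher than in wild types. None of the 13 genes of the microglia, endothelium, meninges and choroid plexus lists was. In RKI homozygotes 4 of 6 neuron, 1 of 5 progenitor, 3 of 4 blood and 1 of 4 microglia markers were higher. For endothelium it was 1 of 3, for meninges 2 of 3 and for choroid plexus 0 of 3. Choroid plexus markers, a list of 3 genes, summed to 646 to 658 CPM in RKI homozygotes, against 684 to 758 CPM in RKI wild types. This list was picked from several after its values were seen, and its difference was not tested. The part of these cells in the isoform estimates was not tested. In whole brains, fewer cells of a type and less RNA per cell cannot be told apart.

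Ap5s1 encodes the small sigma subunit of the AP-5 adaptor complex, which sorts cargo at late endosomes. The gene (ENSMUSG00000068264) lies at chr2:131207078-131213514 on the plus strand and has 8 listed isoforms, of which 3 were at 0 in all embryos. Ap5s1-001, a protein-coding isoform, was estimated at 0, 0 and 0 in LC1 knockouts 7, 22 and 71, against 52.5, 59.3 and 62.2 in LC1 wild types 6, 26 and 73. The groups do not overlap, and the wild types lie close together.

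Ap5s1-001 did not keep to genotype in the other experiment. It was estimated at 133, 0 and 148 in RKI homozygotes A1, A10 and A18, against 9.95, 0 and 15.8 in RKI wild types A2, A9 and A16. Both RKI females were at 0, and all 5 embryos at 0 over the study were female, while the LC1 wild types above 0 were female too. With sex in the model the log2 difference for RKI was 3.27 (SE 0.46), the opposite direction to LC1. Its unadjusted p was 0.000373 by edgeR's quasi-likelihood test and its adjusted p over all transcripts was 1. DESeq2 gave a log2 difference of 3.32 with an adjusted p of 4.81e-10, so the call depends on the tool.

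In the LC1 embryos with Ap5s1-001 at 0, Ap5s1-003 was higher. Ap5s1-003 was estimated at 228, 334 and 245 in LC1 knockouts, against 148, 210 and 196 in LC1 wild types. Together the pair made up 88.0% ± 3.26 of the gene's estimates in LC1 knockouts and 89.3% ± 8.77 in LC1 wild types (SD, n = 3 each). The pair also made up 90.8% ± 3.29 in RKI homozygotes and 88.2% ± 6.07 in RKI wild types, although Ap5s1-001 alone ranged from 0% to 43.1% of the gene in the 6 RKI embryos. The partner was chosen as the isoform whose mean share differed most in the other direction, so that its own difference is a description. Besides the pair, Ap5s1-004 was estimated at up to 51.2 and no other isoform went above 5.66. The steady sum of the pair was therefore largely set beforehand and is a description too.

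The count of the whole gene was 288, 396 and 296 in LC1 knockouts, against 272, 297 and 278 in LC1 wild types. Scaled to library size this was 15.6 ± 0.363 CPM in LC1 knockouts and 14.6 ± 1.45 CPM in LC1 wild types (SD, n = 3 each). By edgeR the log2 fold change was 0.10 (SE 0.094, 95% interval -0.10 to 0.30). In RKI the gene was 14.1 ± 0.472 CPM in homozygotes and 13.5 ± 0.834 CPM in wild types (SD, n = 3 each).

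Tmem144 encodes a multi-pass membrane protein that resembles carbohydrate transporters in sequence. The gene (ENSMUSG00000027956) lies at chr3:79812564-79852773 on the minus strand. It has 2 listed isoforms. In GENCODE M21 they have the same coding sequence and differ in an untranslated first exon and in the length of the last exon. The lengths behind the deposited values were 2292 bases for Tmem144-001 and 2205 for Tmem144-002, against 2898 and 2220 in M21. The exons behind the estimates may therefore differ from these. Tmem144-002 was estimated at 0, 0 and 0 in LC1 knockouts, against 22.0, 28.2 and 50.4 in LC1 wild types. Tmem144-001 was estimated at 81.5, 90.2 and 72.3 in LC1 knockouts, against 49.4, 32.5 and 8.03 in LC1 wild types. In the LC1 wild types the share of Tmem144-002 thus ran from 30.8% to 86.2% between embryos of 1 genotype.

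In the RKI experiment both isoforms were above 0 in all 6 embryos. Tmem144-002 was estimated at 45.5, 17.6 and 14.4 in RKI homozygotes, against 40.3, 40.6 and 37.7 in RKI wild types. The groups overlap, and the log2 difference was -0.58 (SE 0.58, 95% interval -1.95 to 0.79, edgeR adjusted p 1). The 3 RKI wild types were nearly equal, with shares of 54.9% to 55.6%.

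Tmem144 was the least read of the 6 genes. Its count was 64, 76 and 58 in LC1 knockouts, against 64, 50 and 47 in LC1 wild types, and 66, 61 and 63 in RKI homozygotes, against 62, 60 and 61 in RKI wild types. The log2 fold change of the gene was 0.19 for LC1 (SE 0.17, 95% interval -0.17 to 0.56).

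Atg16l2 is a paralog of Atg16l1, the protein that holds the Atg12-Atg5 conjugate in the machinery that lipidates LC3 during autophagy. The gene (ENSMUSG00000047767) lies at chr7:101263034-101302251 on the minus strand and has 14 listed isoforms, 8 of them retained-intron transcripts. Atg16l2-003, listed as a target of nonsense-mediated decay, was estimated at 0, 0 and 0 in LC1 knockouts, against 32.9, 19.5 and 29.5 in LC1 wild types. One wild type thus lies just under the 20 that the count of all-or-none isoforms asks for. In the other experiment it was above 0 in all embryos, at 18.9, 40.3 and 46.2 in RKI homozygotes, against 57.5, 40.4 and 34.2 in RKI wild types. That difference was -0.28 on the log2 scale (SE 0.45, 95% interval -1.35 to 0.79, edgeR adjusted p 1).

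Both isoforms annotated as protein-coding came and went between embryos of the same genotype. Atg16l2-001 was at 0 in all 3 LC1 knockouts and in LC1 wild types 6 and 73, and at 45.4 in wild type 26. Atg16l2-002 was at 30.6 in knockout 7 and at 0 in knockouts 22 and 71, and at 28.3, 0 and 35.3 in LC1 wild types 6, 26 and 73. In wild type 26, which had no Atg16l2-002, Atg16l2-001 was present. Atg16l2-012, a retained-intron fragment of 637 bases, was estimated at 21.8, 86.1 and 40.5 in LC1 knockouts, against 18.7, 53.3 and 22.6 in LC1 wild types.

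The gene count moved far less than its parts. It was 126, 184 and 117 in LC1 knockouts, against 126, 124 and 123 in LC1 wild types. This was 6.73 ± 0.411 CPM in LC1 knockouts and 6.40 ± 0.318 CPM in LC1 wild types (SD, n = 3 each). By edgeR the log2 fold change was 0.08 (SE 0.13, 95% interval -0.20 to 0.36). Taking the sum of the isoform estimates in place of the gene count gave -0.26 (SE 0.23), the other direction and no call either. The sum was 0.613 to 1.20 times the gene count over the 12 embryos, the widest range of the 6 genes. By group it was 0.613 to 0.928 in LC1 knockouts, against 0.981 to 1.05 in LC1 wild types. In RKI it was 0.921 to 1.05 in homozygotes, against 0.701 to 1.20 in wild types. In the LC1 knockouts the isoform estimates thus summed to less than the gene count, as in some embryos of every other group. The cause was not tested.

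Fam188a, named Mindy3 in GENCODE M21, encodes a deubiquitinase of the MINDY family, which trims ubiquitin chains. The gene (ENSMUSG00000026767) lies at chr2:12347263-12419470 on the minus strand and has 16 listed isoforms. Here the isoform was missing from the wild type. Fam188a-002 was estimated at 78.0, 228 and 107 in LC1 knockouts, against 0, 0 and 0 in LC1 wild types. It was also present in every RKI embryo, at 217, 108 and 239 in RKI homozygotes, against 349, 36.3 and 219 in RKI wild types. The LC1 wild types were therefore the group that stood apart from the other 9 embryos, the RKI wild types included. Between RKI groups the log2 difference was 0.33 (SE 0.49, 95% interval -0.84 to 1.499, edgeR adjusted p 1).

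Fam188a-001 is the coding isoform that differs by 28 bases in GENCODE M21. It was estimated at 91.8, 73.3 and 0 in LC1 knockouts, against 249, 254 and 235 in LC1 wild types. It was at 118, 125 and 179 in RKI homozygotes, against 87.4, 282 and 76.6 in RKI wild types. In RKI wild type A9 Fam188a-001 was high and Fam188a-002 low, while A2 and A16 of the same genotype had the reverse. The pair did not sum to the same share in the LC1 groups, with 24.1% ± 7.64 in LC1 knockouts and 34.9% ± 3.91 in LC1 wild types (SD, n = 3 each). Fam188a-004, another target of nonsense-mediated decay, was at 110, 153 and 147 in LC1 knockouts, against 68.1, 34.3 and 113 in LC1 wild types. Those groups overlap.

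The gene count was 475, 678 and 507 in LC1 knockouts, against 551, 463 and 534 in LC1 wild types. This was 26.4 ± 1.03 CPM in LC1 knockouts and 26.5 ± 1.07 CPM in LC1 wild types (SD, n = 3 each). By edgeR the log2 fold change was -0.01 (SE 0.070, 95% interval -0.16 to 0.14).

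Slbp encodes the stem-loop binding protein, which binds the 3′ end of replication-dependent histone mRNAs and is needed for their processing and translation in dividing cells. The gene (ENSMUSG00000004642) lies at chr5:33634952-33652574 on the minus strand and has 9 listed isoforms, all of which reached 20 in at least 1 embryo. It is the 1 gene of the 6 chosen on the RKI experiment. Slbp-010 was estimated at 0, 0 and 0 in RKI homozygotes, against 25.3, 13.3 and 68.5 in RKI wild types. The groups do not overlap, but embryo A9 lies under 20. In the LC1 experiment it was at 9.65, 28.7 and 18.1 in LC1 knockouts, against 28.9, 30.6 and 26.0 in LC1 wild types. That log2 difference was -0.76 (SE 0.57, 95% interval -2.10 to 0.58, edgeR adjusted p 1).

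Slbp-010 was a small part of its gene. It made up 2.28% ± 1.78 of the gene's estimates in RKI wild types (SD, n = 3), while Slbp-002, the leading coding isoform, made up 54.1% ± 5.34 in RKI homozygotes and 50.3% ± 3.61 in RKI wild types (SD, n = 3 each). Of the 6 genes Slbp was the most read, with 920, 841 and 1067 counts in RKI homozygotes, against 1012, 962 and 1071 in RKI wild types. This was 40.6 ± 0.742 CPM in RKI homozygotes and 42.6 ± 4.90 CPM in RKI wild types (SD, n = 3 each). By edgeR the log2 fold change was -0.07 (SE 0.077, 95% interval -0.23 to 0.09). Slbp-009, a coding isoform, was at 61.6, 0 and 25.7 in LC1 knockouts, which is 0 and over 20 within 1 genotype.

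St7, named for suppression of tumorigenicity, encodes a multi-pass membrane protein. The gene (ENSMUSG00000029534) lies at chr6:17692933-17943025 on the plus strand and has 21 listed isoforms, the most of the 6. St7-025, a coding isoform, was estimated at 0, 0 and 0 in LC1 knockouts, against 139, 48.4 and 108 in LC1 wild types. In the other experiment it was above 0 in all embryos, at 41.2, 115 and 90.9 in RKI homozygotes, against 113, 146 and 57.7 in RKI wild types. The RKI groups overlap, with a log2 difference of -0.31 (SE 0.45, 95% interval -1.37 to 0.75, edgeR adjusted p 1).

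Other St7 isoforms were at 0 in some embryos of every group or of several. St7-001 was at 88.8, 125 and 0 in LC1 knockouts, against 234, 65.6 and 0 in LC1 wild types, and at 0, 219 and 0 in A2, A9 and A16, the RKI wild types. St7-005, a retained-intron transcript of 4094 bases, was at 12.3, 85.1 and 0 in LC1 knockouts, against 0, 19.5 and 199 in LC1 wild types. St7-003 was at 277, 523 and 291 in LC1 knockouts, against 150, 312 and 259 in LC1 wild types, and these groups overlap. St7-025 and St7-003 together made up 37.4% ± 4.09 of the gene in LC1 knockouts and 39.5% ± 6.35 in LC1 wild types (SD, n = 3 each).

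The gene count of St7 was 603, 924 and 595 in LC1 knockouts, against 687, 629 and 646 in LC1 wild types. This was 33.4 ± 2.15 CPM in LC1 knockouts and 33.7 ± 0.966 CPM in LC1 wild types (SD, n = 3 each). By edgeR the log2 fold change was -0.01 (SE 0.085, 95% interval -0.19 to 0.17).

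**Figure D2:**
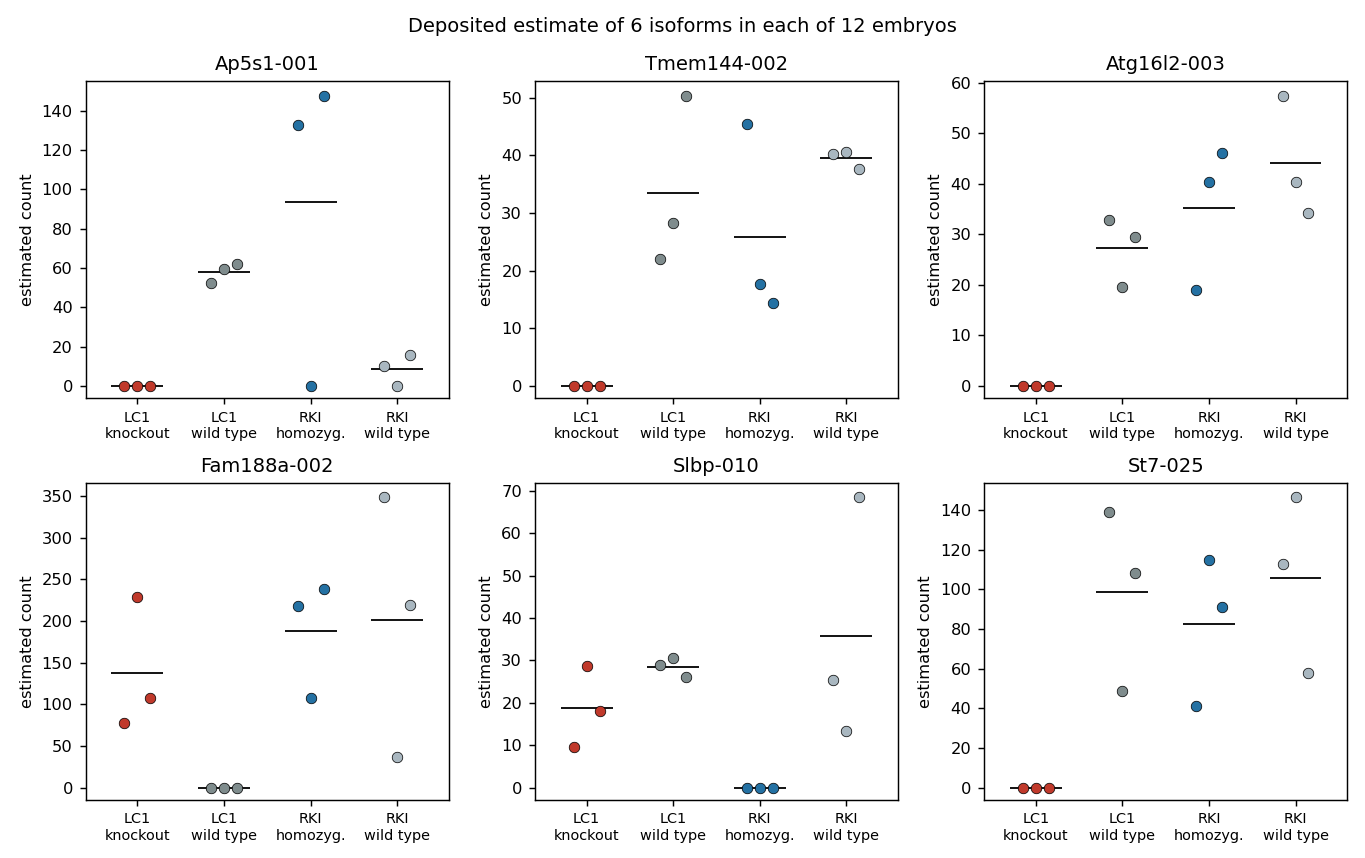
Deposited estimated count (y axis, linear) of the 6 isoforms in each of the 12 embryos, with 1 panel per isoform and 1 point per embryo. Horizontal lines are group means of 3 embryos. Ap5s1-001, Tmem144-002, Atg16l2-003 and St7-025 are at 0 in the 3 LC1 knockouts, Fam188a-002 in the 3 LC1 wild types and Slbp-010 in the 3 RKI homozygotes, and Ap5s1-001 is also at 0 in RKI embryos A10 and A9.

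**Figure D3:**
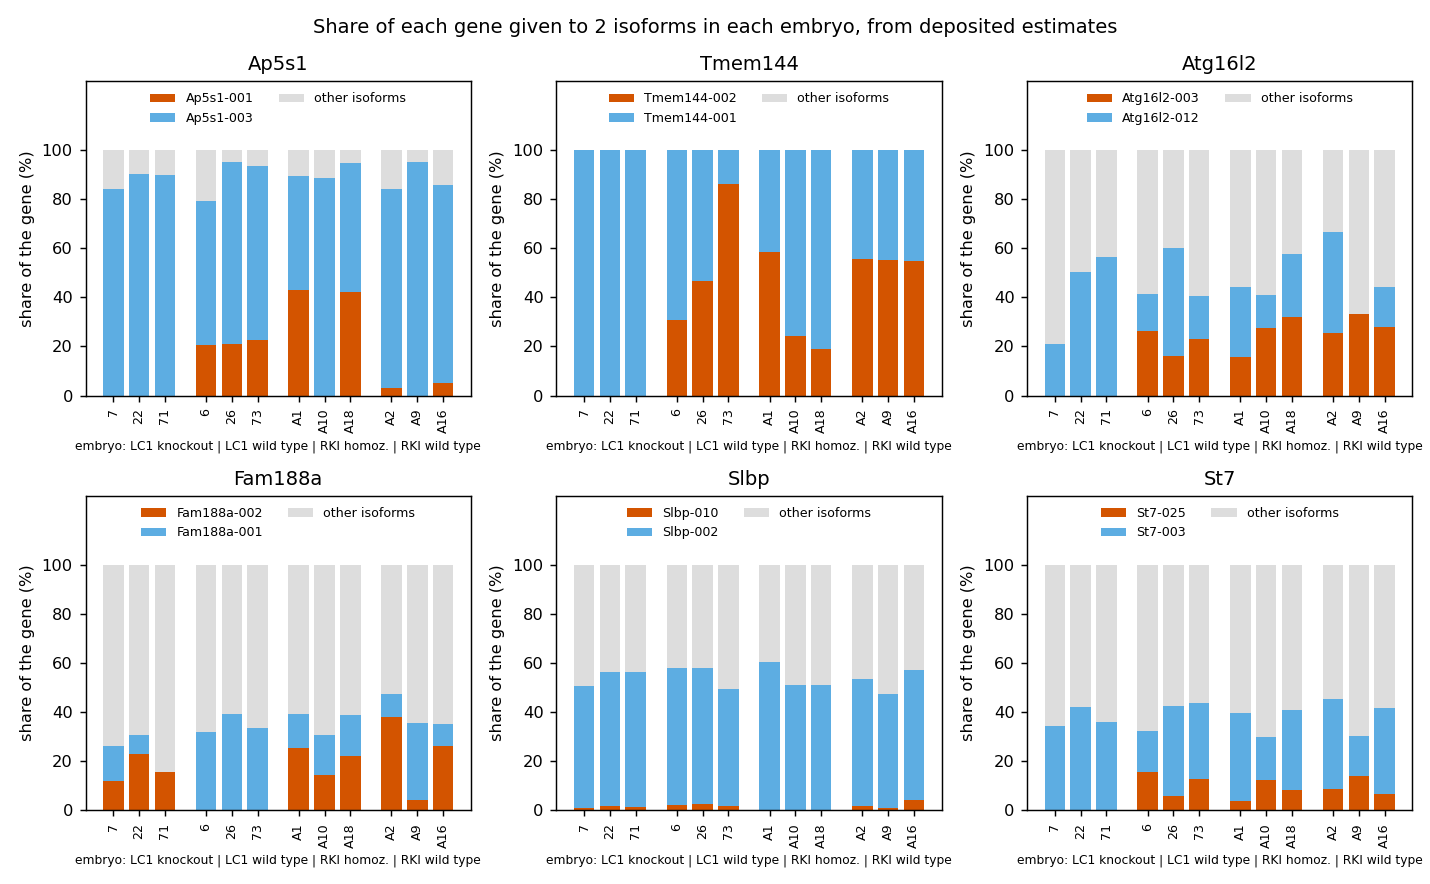
Share of each gene's summed isoform estimates (y axis, percent) given to the all-or-none isoform (orange), its partner (blue) and the remaining isoforms (grey), with 1 bar per embryo in 4 groups of 3. For Ap5s1 the orange and blue parts together reach 79.2% to 95.2% in every embryo, and the orange part alone runs from 0% to 43.1%. The rest is nearly all Ap5s1-004, so the steady sum of the pair was largely set beforehand.

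As whole genes, the 6 did not pass the test in any comparison. The background was 0.0% of genes called for LC1 and 0.0% for RKI, and 0.0% of transcripts in each, and 0 of 6 does not set them apart. Their log2 fold changes had a median absolute size of 0.04 for LC1 and 0.06 for RKI, against 0.07 and 0.06 over all genes tested. Between the wild types of the experiments, RKI minus LC1, edgeR called 2 of 16002 genes (0.0125%) and none of the 6, whose log2 differences ran from -0.14 for Ap5s1 to 0.27 for Atg16l2. For the difference between the RKI and the LC1 effect it called 0 genes (388 at an unadjusted p under 0.05, and 0 by DESeq2). The 6 genes ran from -0.24 for Atg16l2 to 0.06 for Fam188a there. The LC1 wild types were all female and the RKI wild types held both sexes, with sex in the model. Litters are not labelled, so their part cannot be told apart from the experiment.

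**Figure D4:**
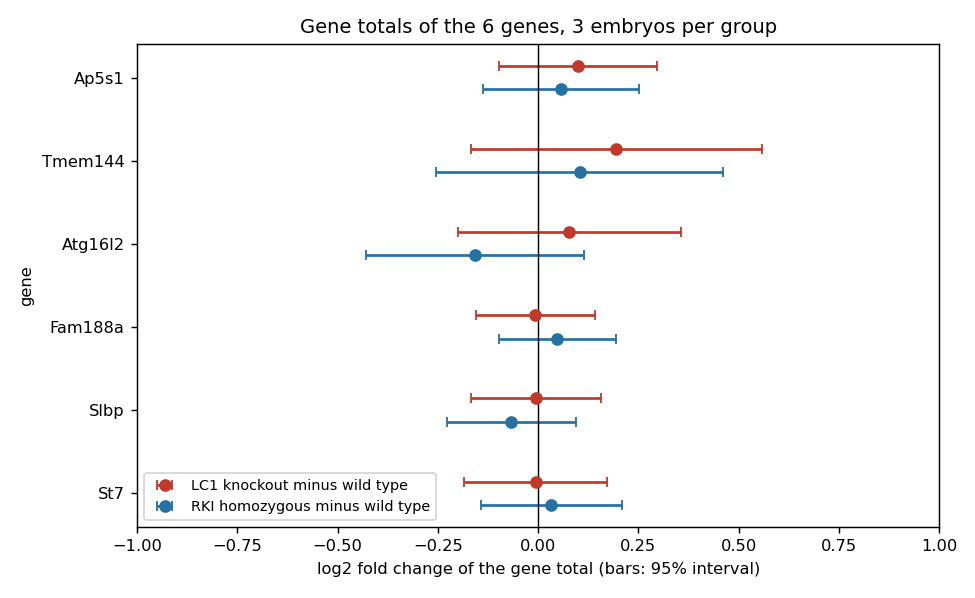
Log2 fold change of the deposited gene count for LC1 knockout minus wild type (red, upper point of each gene) and RKI homozygous minus wild type (blue, lower point), from edgeR with bars at the 95% interval and 3 embryos per group. All 12 intervals include 0, and Tmem144, the gene with the fewest counts, has the widest ones.

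Isoforms listed at 0 in 1 genotype and present in the other were rare and came in both directions. In this count an isoform is under 1 in all 3 embryos of 1 genotype and at 20 or more in all 3 of the other. In LC1, 17 of 37880 transcripts (0.0449%) were absent in knockouts and present in wild types, and Ap5s1-001, St7-025 and Tmem144-002 are 3 of them. Another 14 (0.037%), with Fam188a-002, were present in knockouts and absent in wild types. In RKI, 20 of 39655 (0.0504%) were absent in homozygotes and 15 (0.0378%) in wild types. No isoform of the 6 genes is among those 35. These shares describe the background of the rule that chose the genes.

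The same count between wild types gave numbers of like size. Of 38962 transcripts, 16 (0.0411%) were absent in RKI wild types and present in LC1 wild types, and 17 (0.0436%) were present in RKI wild types and absent in LC1 wild types, Fam188a-002 among them. This comparison was added after the data were seen. It shares its embryos with the genotype comparisons, and its experiments differ in sex ratio. No gene met the rule on gene counts, with 0 of 14389 genes for LC1, 0 of 14666 for RKI and 0 of 14597 between the wild types.

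All 31 all-or-none isoforms in LC1 and all 35 in RKI belonged to genes with 2 or more listed isoforms, with a median of 8. Most transcripts do, with 41177 of the 46698 that reached 20 in at least 1 embryo. Between the wild types, Tmem143-001 met the rule and is the 1 listed isoform of its gene (absent in LC1 wild types, 23.3 to 31.1 in RKI wild types). The all-or-none isoforms most like the 6 were taken by the highest lowest embryo in the group where they were present. In LC1 they were Pnkd-002 (absent in LC1 knockouts, at 96.2 to 242 in LC1 wild types) and Ect2-003 (129 to 148 in LC1 knockouts, absent in LC1 wild types). In RKI they were Mrps17-002 (absent in RKI homozygotes, at 100 to 150 in RKI wild types) and Ncald-201 (133 to 240 in RKI homozygotes, absent in RKI wild types). Next in LC1 were Pbx3-003, Ptbp1-009, Gm973-001 and Zcchc12-002, absent in knockouts, and Tcf7l2-001, Mapk14-002, Uqcrh-005 and Smim8-002, absent in wild types. Next in RKI were St3gal3-005, Ing3-006, Cdca2-002 and Mfsd13a-001, absent in homozygotes, and Umad1-002, Irgm2-201, Aspscr1-007 and Ubl5-012, absent in wild types. Of these named isoforms, the gene farthest from its wild-type level on the log2 scale was Gm973, at -0.38 (SE 0.17). Over all genes of all-or-none isoforms that were tested, the log2 fold change of the gene count ran from -0.51 to 0.19 in LC1 (30 genes) and from -0.22 to 0.21 in RKI (34 genes).

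Estimates of 0 were also common among embryos of the same genotype. Of the 42 isoforms of the 6 genes that reached 20 in at least 1 embryo, 17 (40.5%) were at 0 in 1 embryo and at 20 or more in another of the same group. Without the 6 chosen isoforms and their partners it was 14 of 30 (46.7%), but these too divide the reads of the chosen genes. Over all transcripts that reached 20 the share was 22.8% of 46698. It was 25.1% for genes with 2 or more isoforms, 5.76% for genes with 1, and 0.0196% for gene counts. The 6 genes have from 2 (Tmem144) to 21 (St7) listed isoforms, and no background matched for isoform number or level was counted. The higher share is therefore not read as a trait of the 6 genes. By gene the number was 6 of 8 for Atg16l2, 5 of 10 for Fam188a, 4 of 10 for St7, 1 of 3 for Ap5s1, 1 of 9 for Slbp and 0 of 2 for Tmem144. Isoforms of 1 gene share its reads, so these are not independent, and no test was made.

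Zeros were more frequent where a gene had more listed isoforms. Among transcripts with a mean of 20 or more, 2.73% of those from genes with 1 isoform had a 0 in at least 1 of the 12 embryos. The share was 10.6% with 2 to 4 isoforms, 15.6% with 5 to 9 and 21.5% with 10 or more. The spread between embryos of a group followed the same order, with a median coefficient of variation of 7.17% for gene counts, 9.06% for transcripts of genes with 1 isoform and 23.0% for transcripts of genes with more.

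**Figure D5:**
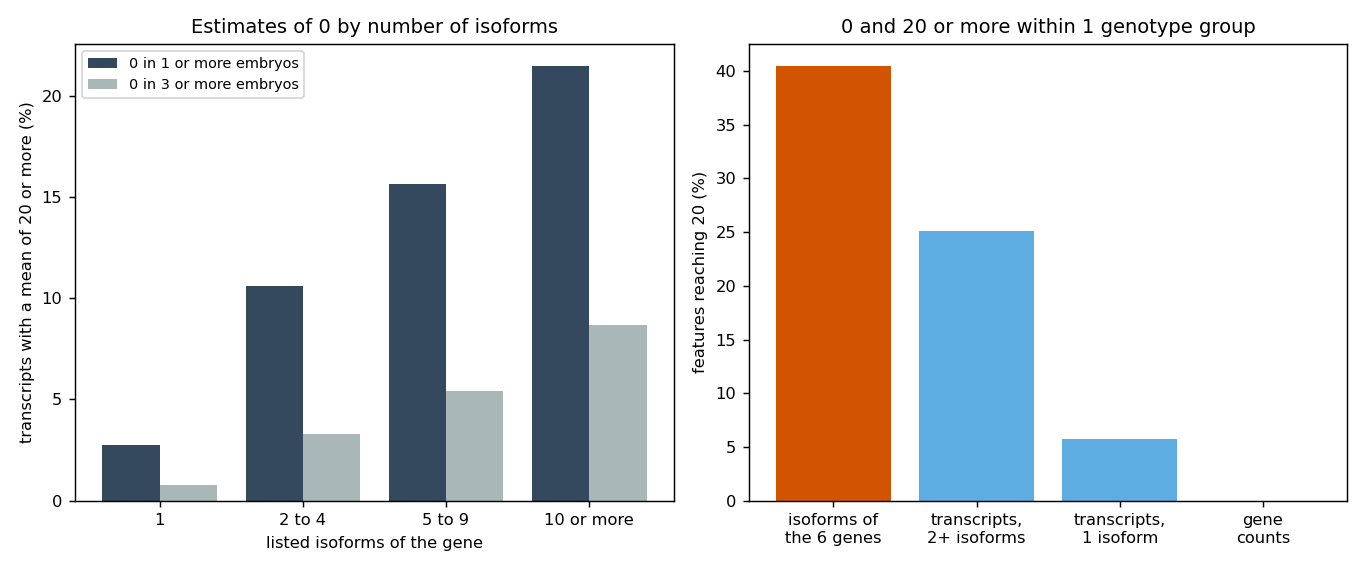
Left, share of transcripts with a mean estimate of 20 or more (y axis, percent) that are at 0 in 1 or more (dark) and in 3 or more (light) of 12 embryos, by the number of listed isoforms of the gene. Right, share of features reaching 20 (y axis, percent) that are at 0 in 1 embryo and at 20 or more in another of the same genotype group, with 40.5% for the isoforms of the 6 genes and 0.0196% for gene counts. The other bars are not matched to the 6 genes for number of isoforms.

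Genes that work with the 6 were read as whole genes. None of them passed edgeR's test in either experiment, beside the 0.0% of all genes called. For AP-5 and its partners all 5 were measured, with a median log2 fold change of 0.06 for LC1 and -0.01 for RKI. Ap5b1, the large beta subunit, had -0.18 (SE 0.13) for LC1, and Spg11, which binds AP-5, had 0.08 (SE 0.063). For autophagy, with genes of conjugation and others such as Ulk1, all 19 were measured, with medians of 0.0017 and 0.05. Atg5, the conjugation partner of Atg12, had -0.14 (SE 0.073) for LC1. For histone mRNA 3′ processing all 13 were measured, with medians of 0.01 and -0.01. Ncbp2, a cap-binding subunit, had -0.13 (SE 0.062) for LC1. Among the 3 other MINDY genes Fam188b had -0.29 (SE 0.11) for RKI, with an adjusted p of 1 by edgeR. St7l, the paralog of St7, had -0.11 (SE 0.084) for RKI. Of the 54 listed isoforms of the histone processing genes, 1 was all-or-none in LC1, Mif4gd-007, present in knockouts and absent in wild types and named after its values were seen, beside 0.037% of all transcripts in that direction. No isoform of the other lists was all-or-none in either experiment.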

How the data were processed

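The 6 genes and the gene lists were chosen with earlier results of these data known. The deposited tables hold gene counts, estimated counts of transcripts, RPKM of both, and the authors' comparisons (log2 fold changes, log2 levels, p-values). Per the submitters' processing notes featureCounts 1.4.5, STAR 2.0.4b, Subread, limma and edgeR were used, in roles not stated. Neither the program that estimated transcripts nor the build, annotation or strand setting is given in the sources used here. Reads of overlapping or antisense genes could therefore be counted together.

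Repeated rows with the same identifier (574 genes, 1298 transcripts) held equal values, and 1 of each was kept. Counts and rounded transcript estimates were tested in R 4.3.3 with edgeR 4.0.16 (TMM scaling, filterByExpr, robust quasi-likelihood fits, 4 group means and a term for sex over 12 libraries and 7 residual degrees of freedom, Benjamini-Hochberg adjustment at 0.05). The common biological coefficient of variation was 6.94% for 16002 genes and 56.0% for 47772 transcripts. The transcript test carries no model of the uncertainty of an estimate. Intervals are at 95% and cover the spread between embryos. DESeq2 1.42.0 was the other tool, and the fits were checked on simulated counts. Named were all isoforms listed for the 6 genes, up to 5 all-or-none isoforms of other genes per experiment and direction, and up to 3 genes per list by smallest p. Isoforms are described when they meet the all-or-none rule at 10 or more in place of 20. Transcript sequences and exons came from GENCODE M21 on GRCm38. Other scalings, filters and thresholds, and leaving out each embryo, were tried as alternatives.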

Additional observations from a re-analysis of the deposited data

How the results depend on the processing

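No paired analysis was possible because the groups share no replicate numbers in the labels, and no label names the litters. Gene totals changed sign in 36 of 420 refits, and isoforms in the experiment that did not choose them in 4 of 102. No gene total and 1 isoform refit was called. Summing isoform estimates in place of gene counts gave log2 changes for Atg16l2 of -0.26 (LC1), -0.012 (between wild types) and 0.16 (difference of effects), and 0.012 for Fam188a between wild types. The cause was not tested. Without the low-count filter edgeR called 4 genes for LC1, 26 for RKI, 28 between wild types and 17 for the difference, and from isoform sums 4, 1 and 3 for the last 3. Among transcripts DESeq2 called 191, 132, 305 and 165, and edgeR called 2 for RKI without the filter and 1 without sex. Ap5s1-001 in RKI was 3.32 by DESeq2, and Fam188a-002 in RKI was -0.057 without sex. The all-or-none counts, in the order of the text, were 40, 42, 41 and 39 at 10 or more and 3, 4, 3 and 2 at 50 or more. By RPKM, Atg16l2-003 had 7.91% of its gene in LC1 wild types and Fam188a-002 6.55% in LC1 knockouts. Own words of Ap5s1-001 were 0.991%, 1.71% and 7.05% at 20, 30 and 100 bases, and of Fam188a-002 0.697%, 1.14% and 4.33%.

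Leaving out 1 embryo at a time, no gene total was called. For LC1 the log2 range crossed 0 for St7 (-0.064 to 0.0226), Fam188a (-0.037 to 0.0193) and Slbp (-0.035 to 0.0319), and for RKI for St7 (-0.035 to 0.121) and Slbp (-0.134 to 0.037). For the difference of effects the range was -0.124 to 0.0098 for Ap5s1, -0.0297 to 0.128 for St7, -0.209 to 0.0094 for Tmem144 and -0.129 to 0.0411 for Slbp. Between wild types it was -0.0415 to 0.0688 for St7, -0.161 to 0.0918 for Tmem144 and -0.153 to 0.0026 for Slbp. In RKI, Atg16l2-003 ran from -0.553 to 0.0477, positive without A1, and Fam188a-002 from -0.320 to 0.636, negative without A10 or A9. The all-or-none counts, with fewer embryos to meet the rule, were 34 to 69 and 39 to 64 in LC1 and 51 to 73 and 42 to 61 in RKI. Genes called were 0 to 2 for RKI, 1 to 4 between wild types and 0 to 1 for the difference. Transcripts called were 0 to 1 for LC1, 0 to 7 for RKI, 1 to 46 between wild types and 0 to 1 for the difference, with the highest counts for RKI and between wild types without A10.

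Tmem144 rests on a gene count of 47 to 76 per embryo. An estimate of 0 has no error of its own in the deposited tables, so no limit for an isoform at 0 can be given.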
